A study of Mus musculus with 2 samples.

Results

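Transcripts of 10 angiogenic signal genes were compared in interscapular brown adipose tissue (iBAT) of wild-type and Ucp1 knockout (Ucp1-KO) mice. The genes were chosen by name, as Vegfa, Vegfb, Vegfc, Vegfd, Pgf, Angpt1, Angpt2, Apln, Aplnr and Nrp1, and all 10 were found among the 27179 genes listed for both libraries. The animals were untreated C57BL/6N mice aged 20 days, described as male, and carried either the wild-type Ucp1 gene or the Ucp1 deletion in both copies. Tissue of 3 animals was pooled for each genotype, which gave 1 library per genotype and no replicate. Differences are therefore those between 2 libraries, have no p-value, and are given with a counting interval that does not include the spread between animals.

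Blood vessels grow into brown fat along with its heat-producing adipocytes, which burn fuel and oxygen at a high rate and depend on a dense capillary bed. Vascular endothelial growth factors (VEGFs) are secreted ligands of receptor tyrosine kinases on endothelial cells. Vegfa acts chiefly through Kdr, Flt1 binds Vegfa, Vegfb and Pgf, and Flt4 is the receptor of Vegfc and Vegfd in lymphatic endothelium. Angiopoietins bind the endothelial receptor Tek and steady or loosen the vessel wall, while apelin is a peptide that signals through the G protein-coupled receptor Aplnr on endothelial cells.

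The libraries held 52950913 counts (wild-type) and 53216727 counts (Ucp1-KO). Ucp1 itself was at 12.7% of the wild-type level in the Ucp1-KO library, lower but not at 0. The label of male animals was not borne out by either library. In wild-type, Eif2s3y, Kdm5d, Uty and Ddx3y, 4 Y-linked genes, had 0 counts together, against 5305 in the Ucp1-KO library. Xist, an RNA of the inactive X chromosome, had 32380 and 16478 counts, so that the Ucp1-KO pool, at 62.6% of the wild-type level, did not have the transcripts of male animals alone. Adipocyte transcripts, chosen as a check of the tissue, were abundant in both libraries, with 89838 and 102812 counts of Cidea and 387360 and 350385 counts of Fabp4. Skeletal muscle markers, 20 genes, held 0.715% of wild-type counts but 0.0915% in Ucp1-KO. All 20 were lower by 2-fold or more, against 9.55% of all genes examined below. Genotype, sex-linked transcripts and muscle transcripts differed together, and with 1 library per genotype they cannot be told apart.

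To show the sequence context of the VEGF ligands whose counting interval left 0, the 250 bases before their first listed transcription start are given here, from RefSeq on build GRCm38.p6, 5′ to 3′ on the strand of the gene. Capitals mark the core of the hypoxia response element, ACGTG or GCGTG on either strand. The windows lie at chr17:46032378-46032627, minus strand (Vegfa), chr19:6987652-6987901, minus strand (Vegfb), chr12:85177314-85177563, minus strand (Pgf) and chr8:54077282-54077531, plus strand (Vegfc).
Vegfa: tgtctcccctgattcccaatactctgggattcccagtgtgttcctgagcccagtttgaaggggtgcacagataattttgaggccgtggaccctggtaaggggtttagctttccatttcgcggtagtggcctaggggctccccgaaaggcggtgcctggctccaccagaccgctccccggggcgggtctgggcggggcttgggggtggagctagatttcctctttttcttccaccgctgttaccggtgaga
Vegfb: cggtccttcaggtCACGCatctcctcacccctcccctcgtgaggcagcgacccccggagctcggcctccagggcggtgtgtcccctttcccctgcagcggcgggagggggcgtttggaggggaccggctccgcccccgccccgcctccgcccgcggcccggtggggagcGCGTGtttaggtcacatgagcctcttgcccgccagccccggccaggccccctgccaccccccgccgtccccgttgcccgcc
Pgf: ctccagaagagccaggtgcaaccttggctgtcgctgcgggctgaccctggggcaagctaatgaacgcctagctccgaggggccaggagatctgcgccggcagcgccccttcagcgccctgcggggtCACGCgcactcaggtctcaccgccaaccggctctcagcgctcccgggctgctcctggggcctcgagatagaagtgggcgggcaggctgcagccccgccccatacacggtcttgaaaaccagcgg
Vegfc: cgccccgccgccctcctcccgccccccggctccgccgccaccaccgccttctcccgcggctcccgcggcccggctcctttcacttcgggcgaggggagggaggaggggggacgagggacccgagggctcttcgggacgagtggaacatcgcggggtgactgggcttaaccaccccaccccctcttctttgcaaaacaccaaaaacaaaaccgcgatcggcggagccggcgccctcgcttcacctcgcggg

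The table of promoters held 9 windows for 7 of the 10 genes, and none for Angpt1, Angpt2 and Aplnr. In the first window of each gene, the GCGTG core was found for Vegfb, Pgf and Nrp1 and neither core for Vegfa, Vegfc, Vegfd and Apln. A further window of Vegfa (chr17:46025164-46025413, minus strand) held 1 ACGTG and 1 GCGTG. It lies downstream of the first listed start, inside the gene, in sequence that is also transcribed from that start. Whether its motifs act in a promoter was not tested, and sequence beyond 250 bases before a start was not searched. Of all 32851 promoter windows of this length, 38.6% held either core, 16.6% ACGTG and 28.2% GCGTG, so 3 of 7 genes is close to that share. The Sp1 box GGGCGG was present in 6 of the 7 first windows, all but that of Vegfd, against 32.7% of all windows. The AP-1 site TGACTCA (4.46% of all windows) was in none of the 9 windows. The core TGACG of a cyclic AMP response element (17.8%) was in 1, the further window of Vegfa, where it overlapped the ACGTG core. The share of guanine and cytosine ran from 42.4% in the window of Vegfd to 76.4% in that of Vegfb.

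Read counts were divided by median-of-ratios size factors, and such normalised counts are used for each gene below. The difference between the libraries is the log2 ratio of Ucp1-KO over wild-type after adding 0.5 to each, and its 95% interval was computed on read pairs. Of 15212 genes whose normalised counts averaged 10 or more, 7.42% were higher in Ucp1-KO by 2-fold or more and 9.55% lower by as much (17.0% in either direction). The interval lay above 0 for 31.5%, below 0 for 30.5% and spanned 0 for 38.0%. Among the 10 angiogenic genes, all of which passed that minimum, 1 was higher by 2-fold or more and none lower by as much. Their interval lay above 0 for 4 (Vegfa, Vegfb, Pgf, Angpt1), below 0 for 3 (Vegfc, Aplnr, Nrp1) and spanned 0 for 3 (Vegfd, Angpt2, Apln). Counting intervals narrow with the count, so the share of genes past them was also taken by level. Of the 4 genes with a mean above 1000 (Vegfa, Vegfb, Aplnr, Nrp1) the interval left 0 for all 4, as for 76.9% of all genes at that level, and none was past 2-fold (5.49%). Of the 6 with a mean of 50 to 1000 it left 0 for 3, against 57.2%, and 1 was past 2-fold (16.7%). The median log2 ratio of the 10 genes was 0.0047, against -0.0016 over all genes examined, with 5 genes above and 5 below 0.

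**Figure D1:**
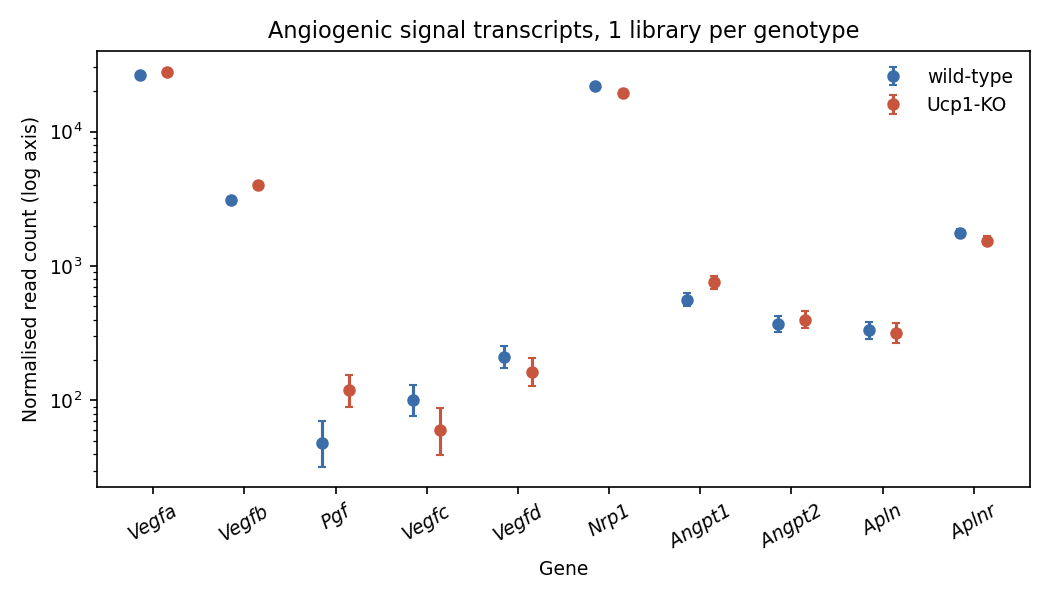
Normalised read counts (log axis) of the 10 genes in the wild-type (blue) and the Ucp1-KO library (red), with 95% Poisson intervals on read pairs as bars. Vegfa and Nrp1 lie at 19431 or higher in both libraries, and Pgf and Vegfc at 119 or lower.

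Vegfa, the main growth factor for blood endothelium (Entrez 22339, chromosome 17, 46327919 to 46343309 of GRCm39, minus strand), had 29438 counts in the wild-type pool against 25163. These were 26534 and 27917 normalised counts, a log2 ratio of 0.07 (0.04 to 0.11) or 1.05-fold (1.03 to 1.08). The difference was small, and its direction depended on the scaling: with total counts the log2 ratio was -0.23. Total counts shifted every gene by -0.31, and mitochondrially encoded genes took 22.4% of wild-type counts against 36.7% in Ucp1-KO. With these 15 genes left out of the totals, the log2 ratios moved by only -0.01 from those of the size factors.

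Vegfb, a ligand of Flt1 (Entrez 22340, chromosome 19, 6958447 to 6965127, minus strand), had 3427 and 3634 counts. Normalised, these were 3089 and 4032, so the log2 ratio was 0.38 (0.29 to 0.48). Vegfb was thus higher relative to most genes, and with total counts it was at 0.077, where the interval (-0.02 to 0.17) included 0. The gene overlaps Trpt1 on the opposite strand, which had 467 and 500 counts.

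Pgf, placental growth factor, another ligand of Flt1 (Entrez 18654, chromosome 12, 85213409 to 85224564, minus strand), was the member past the 2-fold rule. It had 54 counts in wild-type (95% Poisson interval 35.6 to 78.6) and 107 in Ucp1-KO (80.3 to 139.8). The log2 ratio was 1.28 with an interval of 0.59 to 2.01, that is 2.44-fold (1.51 to 4.03), so that a ratio below 2-fold lies within counting error. Of all genes examined, 94.8% had a lower log2 ratio, and 20.7% had a lower mean count. With total counts Pgf was at 0.97, just under the 2-fold rule.

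Vegfc and Vegfd are the lymphatic growth factors, and the interval left 0 for Vegfc only. Vegfc (Entrez 22341, chromosome 8, 54530257 to 54640131, plus strand) was covered by 112 counts (wild-type) and 54 (Ucp1-KO), and its log2 ratio of -0.75 had a wide interval, -1.47 to -0.07. Vegfd (Entrez 14205, chromosome X, 163156240 to 163185646, plus strand) was covered by 235 and 148, with a log2 ratio of -0.37 (-0.81 to 0.06) that was not beyond counting error on read pairs. On the counts as deposited the interval of Vegfd was -0.67 to -0.06. Vegfd and Apln are X-linked, and the difference in sex-linked transcripts stands beside their values. Its part in them was not tested.

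Nrp1, neuropilin 1, a co-receptor that binds Vegfa and class 3 semaphorins (Entrez 18186, chromosome 8, 129085085 to 129231082, plus strand), was second to Vegfa in abundance by normalised counts. It had 23992 and 17514 counts, which normalised to 21625 and 19431. The log2 ratio was -0.15 (-0.19 to -0.11), a small difference, and -0.46 with total counts.

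Among the angiopoietins, Angpt1, the activating ligand of Tek that mural cells make (Entrez 11600, chromosome 15, 42288058 to 42540417, minus strand), was counted 623 times in wild-type, 683 times in Ucp1-KO. Its normalised counts were 561.5 and 757.7, for a log2 ratio of 0.43 (0.21 to 0.66), and 0.13 (-0.10 to 0.35) with total counts. Angpt2, a ligand of Tek that endothelial cells release and that can oppose Angpt1 (Entrez 11601, chromosome 8, 18739202 to 18791603, minus strand), had 412 and 360 counts. Its log2 ratio of 0.10 (-0.19 to 0.40) did not leave counting error. Angpt2 lies inside Mcph1, which is on the opposite strand and had 285 and 344 counts, and the strand setting of the counting was not given in the sources used here. A further ligand, Angpt4, had 0 counts in both libraries, where 0 allows up to 6 counts, or 3 read pairs.

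In the apelin system, Apln (Entrez 30878, chromosome X, 47114019 to 47123775, minus strand), the ligand, had 368 and 286 counts. Its log2 ratio was -0.06 (-0.39 to 0.26); it did not leave counting error, while with total counts it was -0.37 (-0.70 to -0.05). Aplnr, the receptor (Entrez 23796, chromosome 2, 84966569 to 84970267, plus strand), had 1962 and 1392 counts, or 1768 and 1544 normalised counts. The log2 ratio was -0.20 (-0.34 to -0.05), lower by less than the median of the endothelial markers below. Apela, the other peptide that binds Aplnr, was rare, at 36 and 10 counts, with a log2 ratio of -1.51 (-3.33 to -0.07).

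Levels between genes were compared per kilobase of union exon length in GENCODE release M39. In wild-type, Vegfa had 6172 normalised counts per kilobase, Nrp1 1419, Vegfb 949.0 and Aplnr 478.1, each apart from its neighbour beyond the counting intervals. Apln (87.7), Angpt1 (78.2), Angpt2 (77.5) and Vegfd (74.3) followed as a group in which neighbours did not differ beyond counting error, then Vegfc (35.3) and Pgf (16.6), which differed. In Ucp1-KO the order was Vegfa (6494), Nrp1 (1275), Vegfb (1239), Aplnr (417.5), Angpt1 (105.5), Apln (83.9), Angpt2 (83.3), Vegfd (57.6), Pgf (40.6) and Vegfc (20.9). There the intervals of Nrp1 and Vegfb overlapped, as did those of all neighbours from Angpt1 to Vegfc. Pgf and Vegfc thus stood in opposite order in the 2 libraries, and beyond counting error only in wild-type. Per kilobase of canonical transcript the order of Pgf and Vegfc was the same in each library, but their intervals overlapped in wild-type and not in Ucp1-KO. Vegfa made up 85.2% of the summed VEGF family level per kilobase in wild-type and 82.7% in Ucp1-KO, Vegfb 13.1% and 15.8%, and Pgf 0.230% and 0.517%. Nrp1 depends most on the length used: per kilobase of its canonical transcript it was at 4211 in wild-type and 3784 in Ucp1-KO.

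The receptors Kdr, Flt1 and Tek were lower in the Ucp1-KO library. Kdr went from 33059 counts (wild-type) to 14683 (Ucp1-KO), at a log2 ratio of -0.87 (-0.91 to -0.83). Flt1 went from 20424 to 8844, at -0.91 (-0.96 to -0.86). Tek was at -0.86 (-0.94 to -0.78), and Tie1, the orphan receptor that pairs with Tek, at -0.74 (-0.81 to -0.68). Both VEGF receptors of blood endothelium and both Tie receptors were thus at 53.3% to 59.7% of the wild-type level. The lymphatic receptor Flt4, at -0.17 (-0.36 to 0.01), did not leave counting error, and Nrp2 was at -0.43 (-0.50 to -0.35).

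Of the 12 receptors and partners listed, 10 had a mean of at least 10. The interval lay below 0 for 8 and above 0 for 1 of them (30.5% and 31.5% of all genes). Above a mean of 1000, the interval left 0 for 76.9% of all genes. The median log2 ratio of the 10 was -0.80, against -0.0016 over all genes, and only Apela was lower by 2-fold or more. Sema3f, a semaphorin that binds neuropilins, was the one that was higher, at 0.69 (0.54 to 0.84). Sema3c was at -0.92 (-1.23 to -0.62) and Plxnd1, a semaphorin receptor of endothelium, at -0.65 (-0.73 to -0.58). Sema3a had 6 and 2 counts and was not examined.

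**Figure D2:**
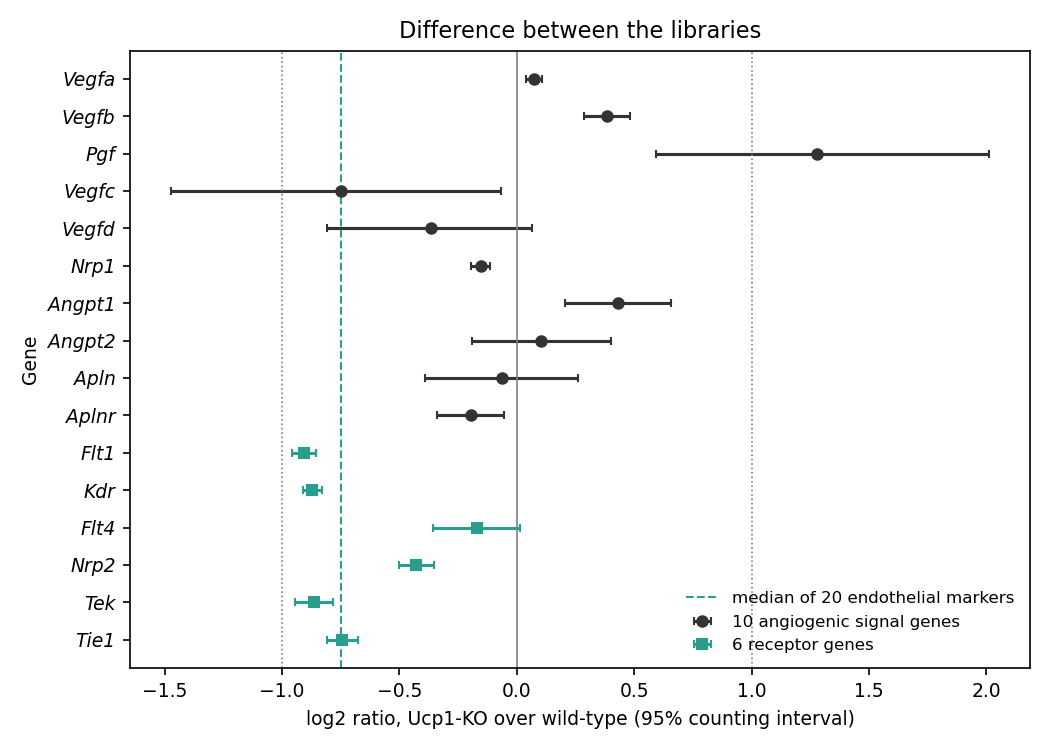
log2 ratio (Ucp1-KO over wild-type) of the 10 angiogenic signal genes (black circles) and 6 receptor genes (green squares), with 95% counting intervals; dotted lines mark 2-fold and the dashed line the median of 20 endothelial markers at -0.75. Kdr, Flt1, Tek and Tie1 lie near the dashed line, while Vegfa, Vegfb, Pgf and Angpt1 lie to the right of 0.

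Transcripts of endothelial cells were lower in the same way. Of 20 endothelial markers, 18 had an interval below 0 and 1 an interval above 0, with a median log2 ratio of -0.75 (against 30.5% and 31.5% of all genes). Kdr, Flt1, Tek and Tie1 are in this list too. Emcn, a sialomucin of capillaries and veins, was at -1.39 (-1.52 to -1.27), Vwf at -1.05 (-1.22 to -0.88) and Egfl7 at -0.92. The transcription factor Erg had 2036 and 828 counts, 50.1% of the wild-type level. Cldn5, a tight junction gene of endothelium, was at 0.50 (0.38 to 0.63) and was named after its value was seen. The markers held 0.374% of all wild-type counts against 0.189% in Ucp1-KO. In bulk tissue, fewer endothelial cells and less RNA per endothelial cell cannot be told apart. Skeletal muscle markers were lower too, by a median log2 ratio of -2.45. The part of muscle tissue in the values of the endothelial markers and receptors was not tested.

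Ratios between 2 genes of the same library do not depend on scaling, and 15 such ratios, chosen after the receptor values were seen and sharing denominators, were set side by side. The ratio of Vegfa to Kdr counts went from 0.890 in wild-type to 1.71, 1.92-fold (1.86 to 2.00). That of Vegfa to Flt1 went from 1.44 to 2.85, 1.97-fold (1.89 to 2.06). That of Pgf to Flt1 changed most, by 4.58-fold (2.88 to 7.28). Counts of these 2 ligands per count of Kdr (Vegfa) or Flt1 (Vegfa and Pgf) were thus higher in the Ucp1-KO library under any scaling. The receptors were, however, already at 53.3% (Flt1) and 54.7% (Kdr) of the wild-type level. A gene with no difference of its own would also rise against them, and Vegfa itself differed by only 1.05-fold.

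The same held for the Tek ligands, as Tek was at 55.0% of the wild-type level and the interval of Angpt2 itself spanned 0. Angpt1 to Tek changed by 2.45-fold (2.08 to 2.89) and Angpt2 to Tek by 1.95-fold (1.59 to 2.40). The ratio of Angpt2 to Angpt1 was 0.661 in the wild-type library against 0.527, 0.797-fold with an interval (0.619 to 1.03) that included 1. Apln to Aplnr, at 0.188 and 0.205, also did not leave counting error (1.10-fold, 0.862 to 1.39), nor did Vegfc or Vegfd relative to Flt4 (0.668-fold, 0.415 to 1.08, and 0.873-fold, 0.636 to 1.20). On the counts as deposited, in place of read pairs, the log2 interval left 0 for Vegfc to Flt4 (-1.07 to -0.10) and Angpt2 to Angpt1 (-0.58 to -0.07). The call on these ratios thus depends on whether reads or read pairs are counted.

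Both receptors among the 10 genes were lower by less than the median of the 20 endothelial markers (-0.75), of which 2 were not lower. Aplnr relative to Pecam1, a surface protein of all endothelium that was picked as reference after its value was seen, was 1.21-fold higher in Ucp1-KO (1.09 to 1.34), and Nrp1 relative to Pecam1 1.25-fold (1.19 to 1.30). Nrp1 relative to Kdr was 1.64-fold higher (1.58 to 1.71).

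**Figure D3:**
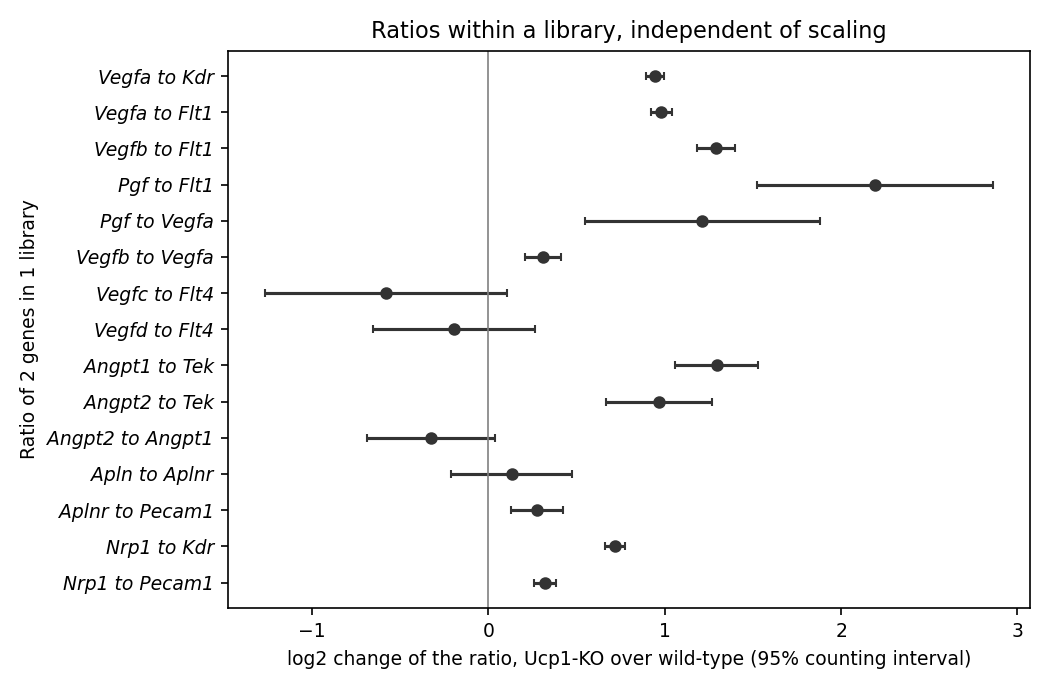
log2 change of 15 ratios between 2 genes of 1 library (Ucp1-KO over wild-type), with 95% counting intervals as bars. The ratios of VEGF ligands to Kdr or Flt1 and of angiopoietins to Tek lie to the right of 0, and Vegfc to Flt4, Vegfd to Flt4, Angpt2 to Angpt1 and Apln to Aplnr span 0.

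Vegfa is known to respond to low oxygen through hypoxia-inducible factors and, in muscle and fat, to the coactivator Ppargc1a with Esrra, and Atf4 can raise it under stress. Ppargc1a stood at 4105 counts (wild-type) and 12332 (Ucp1-KO), which is 1.89 (1.81 to 1.96) on the log2 scale. Atf4 stood at 3721 and 8375, which is 1.47 (1.39 to 1.55). Esrra was at 0.10 (0.03 to 0.17). Hif1a, which encodes an oxygen-regulated subunit, was at 0.32 (0.23 to 0.41). Epas1, which encodes another such subunit, was at -0.21 (-0.24 to -0.18), and their partner Arnt at -0.34 (-0.45 to -0.24). Hif3a was at -1.45 (-1.97 to -0.97).

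Of the enzymes that mark hypoxia-inducible factors for degradation, Egln1 was at -0.72 (-0.77 to -0.66), Egln2 at -0.55 (-0.67 to -0.42) and Egln3, which is itself hypoxia-inducible, at 0.30 (0.11 to 0.49). Vhl was at -0.31 (-0.51 to -0.12) and Hif1an at 0.03 (-0.08 to 0.14). Over these 12 regulators the median log2 ratio was -0.09, with 5 intervals above and 6 below 0, so that they did not differ in a single direction. Over all genes the interval lay above 0 for 31.5% and below 0 for 30.5%, and above a mean of 1000 it left 0 for 76.9%.

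Transcripts that low oxygen induces were mostly lower. Of 18 such genes, 13 had an interval below 0, 3 above 0 and 2 spanned 0, with a median log2 ratio of -0.58. Among all genes 30.5% had an interval below 0 and 31.5% above 0, and above a mean of 1000 the interval left 0 for 76.9%. Ankrd37, at 199 and 12 counts, had a log2 ratio of -3.70 (-5.23 to -2.58). Car9, carbonic anhydrase 9, was at -1.38 (-2.75 to -0.22) and P4ha1, a collagen prolyl hydroxylase subunit, at -1.22 (-1.32 to -1.13). Adm, the vasoactive peptide adrenomedullin, was higher, at 150 and 286 counts, or 1.23 (0.82 to 1.65). Vegfa therefore lay above the median of this list.

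**Figure D4:**
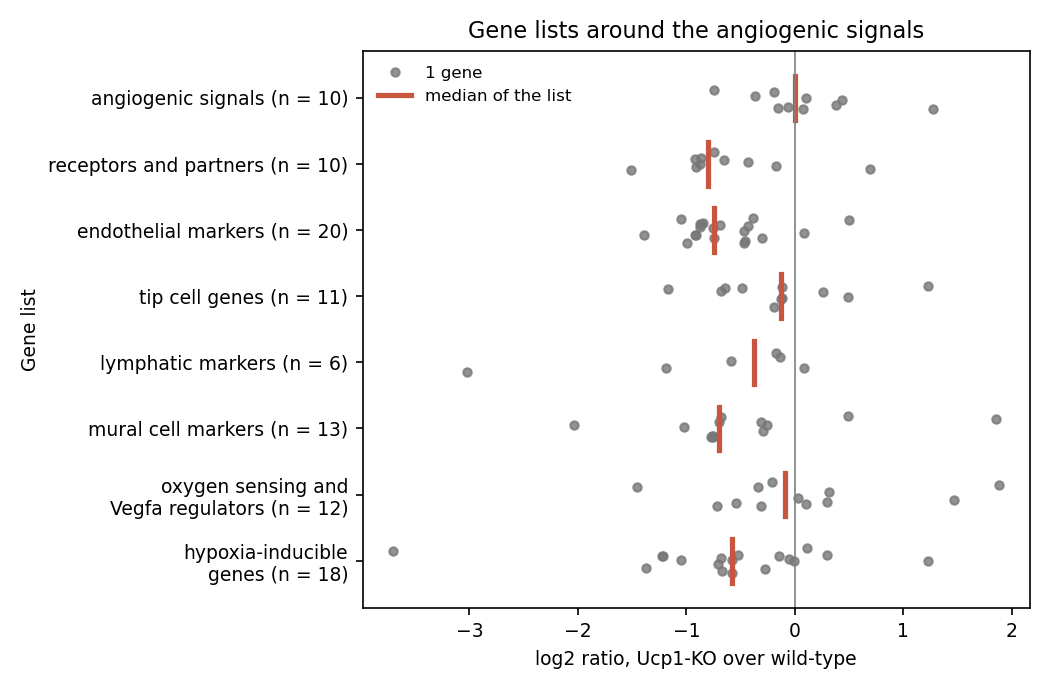
log2 ratio (Ucp1-KO over wild-type) of each gene examined in 8 lists (grey points, spread vertically for legibility), with the median of each list as a red bar. The median is 0.0047 for the angiogenic signals, -0.80 for receptors and partners, -0.75 for endothelial markers and -0.58 for hypoxia-inducible genes.

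Tip cells, which lead a growing capillary sprout, express Apln and Angpt2, and 12 other tip cell genes were examined beside them. Of the 11 with a mean of at least 10, the interval lay below 0 for 7, above 0 for 2 and spanned 0 for 2 (30.5%, 31.5% and 38.0% of all genes), with a median log2 ratio of -0.12. Besides Adm, the largest ratios in size were those of Ramp3, a subunit of adrenomedullin receptors, at -1.17 (-1.57 to -0.80), Nid2 at -0.68 (-0.85 to -0.51) and Unc5b at -0.65 (-0.81 to -0.48). Apln (-0.06) and Angpt2 (0.10) lay near this median.

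Placing the median of the endothelial markers at 0 added 0.75 to every log2 ratio. On that scale Nrp1 was at 0.59 (0.55 to 0.63), Aplnr at 0.55 (0.41 to 0.69), Apln at 0.68 (0.36 to 1.01) and Angpt2 at 0.85 (0.56 to 1.15). Each was above 0, but the median of all genes examined was itself at 0.75 there. Nrp1, Aplnr and Apln lay below that median. Vegfc was at 0.00 (-0.72 to 0.68), where the endothelial markers were. The sign of Vegfa, Nrp1, Aplnr, Angpt2, Apln and Vegfd thus depended on whether most genes, all counts or endothelial transcripts were taken as the reference. Vegfb, Pgf and Angpt1 were above 0 on all 3 scales, though with total counts the intervals of Vegfb and Angpt1 included 0.

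**Figure D5:**
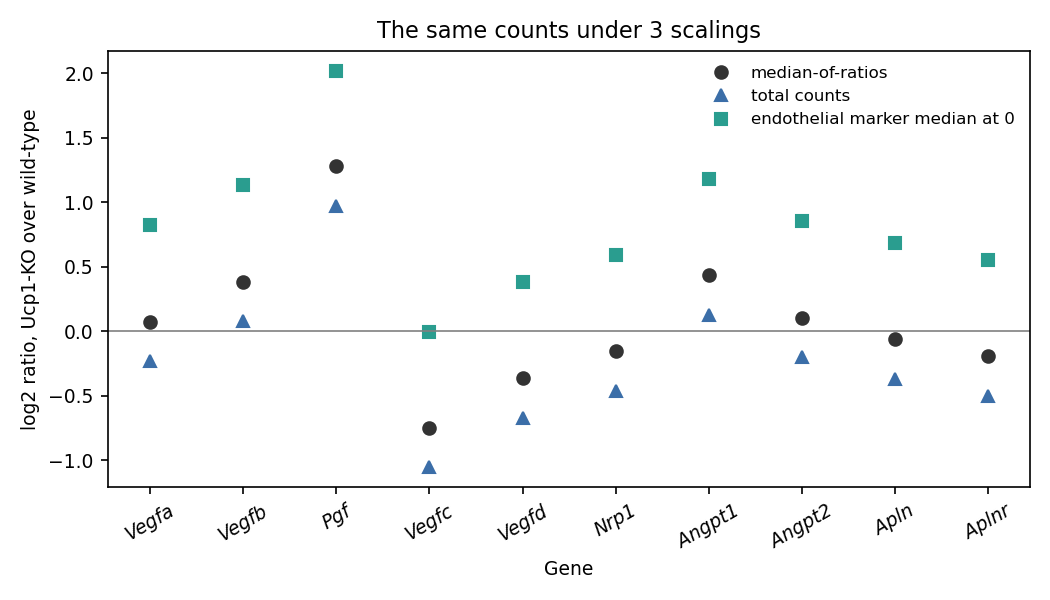
log2 ratio (Ucp1-KO over wild-type) of the 10 genes with median-of-ratios size factors (black circles), total counts (blue triangles) and the endothelial marker median placed at 0 (green squares). The order of the genes is the same on each scale, and Pgf lies highest, at 1.28, 0.97 and 2.02.

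Markers of other cell types also differed between the libraries. Skeletal muscle, which makes Vegfa and Vegfb, was lower in the Ucp1-KO library by a median log2 ratio of -2.45, and its part in the values of both genes was not tested. Preadipocyte and fibroblast markers (12 genes) had a median of -0.14, adipocyte markers (12) of 0.20 and macrophage markers (12) of 0.12. The adipocyte markers were split, with 7 intervals above 0 and 5 below 0 (31.5% and 30.5% of all genes). Lep and Retn, at -1.26 and -1.90, were the 2 lower by 2-fold or more (9.55% of all genes). The macrophage markers held 0.0165% of counts in wild-type against 0.0160% in Ucp1-KO. Of these markers, 5 had an interval above 0, 1 below 0 and 6 spanned 0 (31.5%, 30.5% and 38.0% of all genes). Trem2, from only 10 and 32 counts, was at 1.92 (0.46 to 3.78). Fcgr1, from 28 and 78 counts, was at 1.76 (0.86 to 2.77) and Cd68 at 1.09 (0.75 to 1.43). Cd163, named after its value was seen, was at -0.47 (-0.67 to -0.26). The part of these cells in the level of Pgf or of other members was not tested.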

How the data were processed

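RNA of iBAT was sequenced by the authors from 1 pool of 3 animals per genotype, as strand-specific poly-A libraries. The authors deposited raw counts of reads per gene, made with featureCounts. The submitters' processing notes name Trim Galore, HISAT2 and build mm39, and the annotation, strand and multi-mapping settings were not given in the sources used here. Each table lists 27179 genes by Entrez identifier, and 1319 without a symbol (0.156% and 0.121% of counts) were kept.

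From these counts, median-of-ratios size factors (1.11 for wild-type, 0.901 for Ucp1-KO) were computed with DESeq2 1.42.0 in R 4.3.3, and TMM factors with edgeR 4.0.16. Of genes with 1 to 10 counts, 70.7% and 73.4% had an even count, as when both mates of a pair are counted, so intervals were computed on read pairs (counts divided by 2). Single counts have exact Poisson intervals, log2 ratios exact conditional binomial (Clopper-Pearson) intervals, and changes of a ratio between 2 genes a normal approximation on the log scale (Woolf), all at 95%. Without molecular identifiers reads need not be separate molecules, so intervals reflect counting error alone. The examined genes averaged 10 or more normalised counts, and the size rule was 2-fold. The interval code was tested on simulated data.

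The 10 genes and all gene lists were chosen with earlier results of these data known. Up to 4 genes of each list, those with the largest log2 ratio in size, were named, and any gene of the receptor and regulator lists. Gene positions and lengths came from GENCODE M39 (GRCm39), joined by symbol, and promoter sequences from RefSeq (GRCm38.p6).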

Additional observations from a re-analysis of the deposited data

How the results depend on the processing

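No paired analysis was possible because only 1 library was made per genotype, and no library was left out. The ratios between 2 genes and the levels per kilobase of canonical transcript were chosen after seeing the data.

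TMM factors, total counts without mitochondrially encoded genes, and a pseudocount of 5 left all 10 genes within their counting intervals. With total counts, Vegfa turned from 0.07 to -0.23, and Vegfb moved to 0.077, Angpt1 to 0.13, Angpt2 to -0.20, Aplnr to -0.50 and Nrp1 to -0.46. The median of the 10 genes moved to -0.30, near the shift of all genes (-0.31). Of the 10 genes, 0 were then at least 2-fold higher and 1 lower (Vegfc), and the interval lay above 0 for 1 (Pgf) and below 0 for 6. Of all 15243 genes examined with total counts, 732 were at least 2-fold higher and 2320 lower. The interval lay above 0 for 2191 of them and below 0 for 8213. With the endothelial marker median at 0, Vegfa was at 0.82, Vegfb 1.13, Vegfc -0.0050, Vegfd 0.38, Pgf 2.02, Angpt1 1.18, Angpt2 0.85 and Apln 0.68, while Aplnr turned to 0.55 and Nrp1 to 0.59. On that scale 3 genes were at least 2-fold higher, 8 had an interval above 0 and 0 below, by construction of the shift. The median of all genes examined was at 0.75 on that scale, and the share of all genes called was not taken there.

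Over all genes, total counts gave 732 at least 2-fold higher and 2320 lower, with 2191 intervals above and 8213 below 0. Without a filter on low counts 2187 were higher and 2844 lower, and with a minimum mean of 50 there were 617 and 811, both of which change the genes that enter. On the same genes, raising the size rule to 1.5 on the log2 scale gave 603 and 796. The adipocyte marker median turned to -0.10 with total counts. Of the other list values under an alternative, 51 differed little and 14 moved. Depth limits Pgf and Vegfc most, whose intervals are the widest.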

Other observations

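Markers of mural cells, which wrap capillaries and supply Angpt1, were mostly lower, as endothelial markers were. Of 13 mural cell markers, 11 had an interval below 0 and 2 above 0 (30.5% and 31.5% of all genes), with a median log2 ratio of -0.70. Higd1b, a pericyte gene, was at -2.03 (-2.43 to -1.66) and the smooth muscle actin gene Acta2 at -1.02 (-1.13 to -0.92), while Cnn1, a calponin of smooth muscle, was at 1.85 (1.55 to 2.18), from 230 and 677 counts. Angpt1, at 0.43, lay on the other side of 0 from the median of these markers. The part of muscle tissue in the values of the mural cell markers was not tested.

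Lymphatic endothelial markers were scarce. Of 7 listed genes 6 had a mean of at least 10, and 2 had an interval below 0, a share near the 30.5% of all genes. The other 4 (Lyve1, Pdpn, Flt4 and Reln) spanned 0, and the median log2 ratio was -0.38. Prox1, the transcription factor that defines lymphatic endothelium, was at 44 and 4 counts, with a log2 ratio of -3.02 (-6.29 to -1.14), and Mmrn1 was at -1.18 (-1.83 to -0.58). The lymphatic ligands Vegfc and Vegfd had log2 ratios of -0.75 and -0.37 beside them.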
